A study of Mus musculus with 32 samples.

Results

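NF-kB is a family of dimeric transcription factors whose 5 subunits are encoded in the mouse by Nfkb1, Nfkb2, Rel, Rela and Relb. These 5 genes were followed by symbol through the RNA of mouse regulatory T cells (Tregs) in stimulated culture with an agonist of 1 of 4 members of the tumour necrosis factor (TNF) receptor family, in stimulated culture alone, and at rest. They are 5 of the 54087 genes listed for each of the 32 libraries, and all 5 were among the 14313 genes kept for testing by a filter on low counts. Nfkb1, Nfkb2 and Rel were higher in stimulated culture than at rest. With every agonist, Nfkb2 and Relb were higher than in culture without an agonist, and Nfkb1 was higher by a smaller amount. Rel was higher with the OX40 agonist, a result that some alternative ways of testing did not keep. With the other agonists its difference from control did not pass the main test.

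The proteins Rela (p65), Rel (c-Rel) and Relb carry the domains that activate transcription. Nfkb1 and Nfkb2 encode the precursors p105 and p100, which are processed to the DNA-binding subunits p50 and p52 and, while unprocessed, act as inhibitors. In the canonical pathway the I-kappa-B kinase (IKK) complex triggers the loss of I-kappa-B inhibitors and frees dimers of p50 with Rela or c-Rel; in the noncanonical pathway the kinase NIK drives the processing of p100 to p52, the usual partner of Relb. The antigen receptor and CD28 reach the canonical pathway, receptors of the TNF family that recruit TRAF adaptors can reach both, and c-Rel is known from mouse knockouts to be needed for normal numbers of Foxp3+ Tregs. Only RNA was measured here, not protein, precursor processing or entry into the nucleus.

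All groups were Foxp3-GFP+ Tregs purified from Foxp3-IRES-GFP knock-in C57BL/6 mice at an age of 2.5 months, in which GFP marks cells that transcribe Foxp3. Cells were cultured for 18 h or 36 h in plates coated with anti-CD3 and anti-CD28, in the presence of 10 ng/ml mouse IL-2. To this, 4 groups at each time added an agonist. TNFR2 was engaged with TNC-sc(mu)TNF80 (STAR2), used at 12 ng/ml, 4-1BB with 10 µg/ml of the antibody 3H3, DR3 with 12 ng/ml of its ligand TL1A, and OX40 with 100 ng/ml of its ligand OX40L. The control groups had the same culture with no agonist, and the resting group was not cultured. Each group had 3 libraries except the OX40 agonist at 18 h, which had 2. There was no culture without stimulation, so that stimulation, IL-2, culture and time cannot be told apart in any comparison with resting cells. Doses were not matched between agonists, and the labels do not say that replicates came from separate animals, so p-values measure the spread between these libraries.

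Total expected counts per library lay between 11880270 and 38083925. All 8 Treg markers examined, among them Foxp3, Il2ra and Ikzf2, were detected in every group, at levels that differed between groups. A transcript of the ribosomal RNA locus on chromosome 17 (Gm42418 in GENCODE) reached 747 to 26286 CPM (counts scaled to library totals) in cultured libraries, against 1235 to 3131 CPM in resting ones. It exceeded 10000 CPM in 6 libraries, namely TNFR2 agonist at 18 h replicate 1, control at 18 h replicates 1 and 2, TNFR2 agonist at 36 h replicate 1, DR3 agonist at 36 h replicate 3 and OX40 agonist at 36 h replicate 2. For the subunits, results that rest on those libraries are given with and without them where the call differs.

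The 5 genes lie on 4 chromosomes of the mm10 build (GENCODE M21): Nfkb1 on chromosome 3 at 135584655 to 135691547, minus strand; Nfkb2 on chromosome 19 at 46304320 to 46312385, plus strand; Rel on chromosome 11 at 23736847 to 23770970, minus strand; Rela on chromosome 19 at 5637483 to 5648130, plus strand; and Relb on chromosome 7 at 19606217 to 19629438, minus strand. A pair of antisense genes overlap Nfkb2, and the libraries do not mark strand. AC114539.1, annotated as a long noncoding RNA of a bidirectional promoter, overlaps its first 1292 bases and has no row in the tables used here, so any reads from it cannot be told apart from those of Nfkb2 there. Psd overlaps the last 299 bases and had 3 to 30 expected counts per library. Within Nfkb1, Gm43430 on the same strand overlaps 3897 bases and likewise has no row. The sequence before the starts of Nfkb2, which rose with every agonist, is shown beside that of Rel and Rela; these 3 of the 5 genes matched a window in the RefSeq table, and none is shown for Nfkb1 and Relb. RefSeq (GRCm38.p6) gave 5 windows of 250 bases before a start for these 3 genes, and 4 of the 5 held a match to the kappa-B consensus, the 10-base motif that NF-kB dimers bind, searched on both strands. Of all 32851 such windows, 1281 held a match, or 3.90%. Capitals mark the matched bases, and pieces that lie inside annotated exons are shown only as the match with up to 6 bases on either side.
Nfkb2 start 1, chr19:46304692-46304714, plus strand: cgtcacGGGAATTCCCCccctcg
Nfkb2 start 1, chr19:46304720-46304736, plus strand: ccgaaaGGGGCTTTCCc
Nfkb2 start 2, chr19:46305445-46305694, plus strand: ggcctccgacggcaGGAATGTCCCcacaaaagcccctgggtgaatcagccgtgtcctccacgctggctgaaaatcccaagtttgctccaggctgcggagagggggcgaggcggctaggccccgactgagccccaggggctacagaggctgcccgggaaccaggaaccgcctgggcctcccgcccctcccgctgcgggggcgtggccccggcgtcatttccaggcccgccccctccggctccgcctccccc
Nfkb2 start 3, chr19:46305699-46305720, plus strand: attttcGGGACTTTCCtaagca
Rel, chr11:23770971-23771219, minus strand: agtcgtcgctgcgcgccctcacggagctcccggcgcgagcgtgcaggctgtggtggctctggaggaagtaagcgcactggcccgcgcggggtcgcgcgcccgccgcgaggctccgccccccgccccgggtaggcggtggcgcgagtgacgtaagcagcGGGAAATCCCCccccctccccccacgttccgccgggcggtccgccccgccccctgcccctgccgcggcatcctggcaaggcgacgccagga
Rela, chr19:5637291-5637482, plus strand: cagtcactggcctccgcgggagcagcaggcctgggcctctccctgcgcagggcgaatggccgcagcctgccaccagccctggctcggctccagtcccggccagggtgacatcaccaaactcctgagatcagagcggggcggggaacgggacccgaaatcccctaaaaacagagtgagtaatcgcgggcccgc
The window before the first Nfkb2 start held matches at 39 to 29 and at 11 to 2 bases upstream, and the single Rel stretch lay 92 to 82 bases upstream. The windows of Nfkb2 starts 2 and 3 overlap each other. A match is a run of letters in this window, not a bound site, and the Rela window held none.

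Compared per length, as TPM (RSEM's estimate of transcript abundance, corrected for length, as a share of the library), Nfkb1 was the most abundant subunit transcript in every group. In control culture at 18 h it averaged 673 ± 6.51 TPM, followed by Nfkb2 at 213 ± 6.29 TPM, Rel at 108 ± 1.18 TPM, Rela at 81.6 ± 3.93 TPM and Relb at 60.6 ± 1.01 TPM (SD, n = 3). In resting Tregs it averaged 370.5 ± 18.9 TPM, and the order below it differed, with Rela at 98.6 ± 5.88 TPM, Nfkb2 at 90.1 ± 1.44 TPM, Relb at 71.9 ± 4.37 TPM and Rel at 39.0 ± 1.58 TPM. Rel, the least abundant subunit at rest, was thus above Rela and Relb in control culture at 18 h, where Relb was last. The summed TPM of the 5 genes was 670.1 ± 27.3 at rest, 1136 ± 17.6 in control culture at 18 h and 940.6 ± 20.4 at 36 h (SD, n = 3 each). A TPM is a share of each library's transcripts, and in bulk RNA fewer cells of a type and less RNA per cell cannot be told apart.

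**Figure D1:**
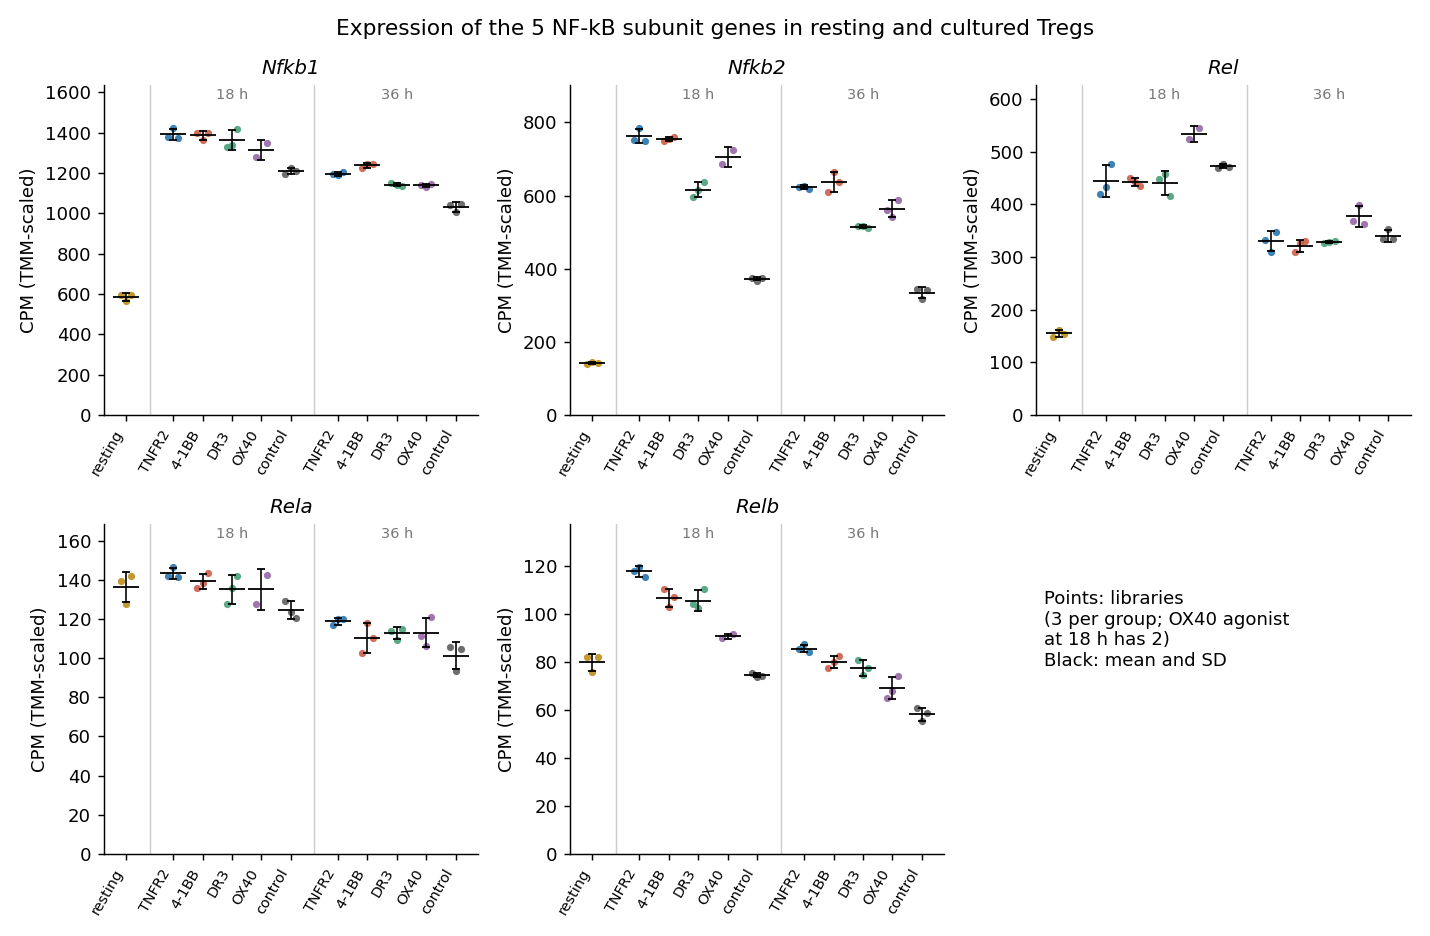
Expression of each NF-kB subunit gene in CPM on library totals scaled by TMM, in resting Tregs and in culture for 18 h or 36 h with an agonist or with none (control). Points are libraries and black bars show the mean and SD; Nfkb2 in agonist cultures lies between 510.4 and 785 CPM, above all control libraries.

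The first comparison asks how the subunit genes differ between stimulated culture and rest. Nfkb1, Nfkb2 and Rel rose by 2.07 to 3.05 times in control culture at 18 h, and Rela and Relb were slightly lower. Rel was at 469, 476 and 472 CPM in control cultures at 18 h, against 149, 162 and 154 CPM in resting cells, a log2 fold change of 1.61 ± 0.05 (SE, adjusted p = 4.57e-31). Nfkb2 was at 376, 368 and 376 CPM in the same cultures, against 140.2, 145 and 142 CPM in resting cells, a log2 fold change of 1.39 ± 0.04 (adjusted p = 4.92e-35). Nfkb1 was at 1196, 1226 and 1209 CPM, against 597, 564 and 594 CPM in resting cells, a log2 fold change of 1.05 ± 0.03 (adjusted p = 2.14e-32). For these 3 genes no cultured library overlapped a resting one.

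Rela was at 129, 124 and 121 CPM in control cultures at 18 h, against 139, 128 and 142 CPM in resting cells, and the groups overlapped. Its log2 fold change was −0.13 ± 0.05 (adjusted p = 0.0248). Relb was at 75.2, 73.6 and 74.1 CPM, against 81.8, 75.6 and 82.0 CPM in resting cells, and the groups did not overlap. Its log2 fold change was −0.10 ± 0.05 (adjusted p = 0.047). Both calls were lost with no filter on low counts (adjusted p 0.0685 for Rela and 0.329 for Relb), without the 6 libraries rich in the ribosomal locus (0.057 and 0.248), which leaves 1 control library at 18 h and gave log2 fold changes of −0.16 and −0.09, and without resting replicate 3 or control replicate 2 or 3 (0.0566 to 0.125); that of Relb was also lost without resting replicate 1 (0.0749) or control replicate 1 (0.091). With limma on TPM both stayed called, and the falls were larger, at −0.27 for Rela and −0.24 for Relb.

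All 5 subunits were thus called at 18 h, where 80.9% of all genes tested were called. The 3 higher ones stand against 40.9% of all genes called higher, and the 2 lower ones against 40.1% called lower. Libraries did not overlap for 4 of the 5, nor for 81.8% of all genes.

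In control culture at 36 h the same 3 genes were above rest, with log2 fold changes of 0.82 ± 0.03 for Nfkb1, 1.23 ± 0.04 for Nfkb2 and 1.14 ± 0.05 for Rel (adjusted p at most 1.23e-25). Rela averaged 101 ± 6.87 CPM at 36 h, against 136 ± 7.72 CPM at rest, and fell by 0.43 ± 0.05 on the log2 scale (adjusted p = 2.73e-09). Relb averaged 58.2 ± 2.66 CPM, against 79.8 ± 3.64 CPM at rest, and fell by 0.45 ± 0.05 on the log2 scale (adjusted p = 2.58e-12). None of the 5 had libraries that overlapped between control culture at 36 h and rest, and 84.5% of all genes had none. All 5 were called, where 84.5% of all genes were, 42.4% higher and 42.1% lower. A scale based on TPM places the median of all genes 0.12 lower at 18 h and 0.13 lower at 36 h, and the 3 rises and the Rela and Relb falls at 36 h stayed called on it.

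Markers of other cells moved in the comparisons with rest. The 10 B cell markers summed to 299 to 323 CPM in control culture at 18 h, against 737 to 778 CPM at rest. Of the 9 tested, 8 were called lower, where 40.1% of all genes were. The myeloid and dendritic cell markers summed to 42.0 to 43.4 CPM, against 50.3 to 52.3 CPM at rest, and Clec9a was at 0 in both groups. Markers of cytotoxic, natural killer and gamma-delta T cells summed to at most 15.1 CPM, against at most 29.2 CPM at rest, with Ncr1 at 0 in both groups. In control culture at 36 h the B cell markers summed to 271 to 286 CPM and the myeloid and dendritic cell markers to 35.0 to 36.7 CPM. The cytotoxic, natural killer and gamma-delta T cell markers summed to 36.5 to 37.8 CPM at 36 h, above rest and above 18 h. Yet 5 of the 6 tested were lower than at rest and 1 was higher, against 42.1% and 42.4% of all genes. Of the 8 Treg markers, 5 were higher and 2 lower in control culture at 18 h than at rest, against 40.9% and 40.1% of all genes. At 36 h 3 were higher and 5 lower than at rest (42.4% and 42.1% of all genes). Against 18 h, 0 were higher and 6 lower at 36 h (25.6% and 26.6% of all genes). The part of any of these markers in the subunit differences was not tested.

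Between 18 h and 36 h of control culture all 5 subunits fell, and no library of either time overlapped the other. Rel showed the largest fall of the 5, at 335, 354 and 334 CPM at 36 h, against 469, 476 and 472 CPM at 18 h, a log2 fold change of −0.47 ± 0.04 (adjusted p = 1.64e-12). The log2 fold changes of the others were −0.35 ± 0.05 for Relb, −0.30 ± 0.05 for Rela, −0.23 ± 0.03 for Nfkb1 and −0.16 ± 0.03 for Nfkb2 (adjusted p at most 0.000172). Of all genes tested, 52.2% were called in this comparison, 26.6% were called lower, and 59.3% had libraries that did not overlap.

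The next comparisons ask what each agonist added to stimulated culture. Nfkb2, the gene of the p100 precursor, had the largest rise of the 5 subunits with each agonist at both times. At 18 h it was at 753, 785 and 749 CPM with the TNFR2 agonist, at 749, 754 and 761 CPM with the 4-1BB agonist, at 597, 614 and 637 CPM with the DR3 agonist and at 686 and 724 CPM with the OX40 agonist. The control libraries of that time were at 376, 368 and 376 CPM, so that every agonist library was above all of them. The log2 fold changes over control were 1.03 ± 0.03 for TNFR2, 1.02 ± 0.03 for 4-1BB, 0.72 ± 0.03 for DR3 and 0.92 ± 0.04 for OX40 (adjusted p at most 7.54e-22). By its p-value Nfkb2 ranked 4, 11, 6 and 3 among the 14313 genes for these 4 agonists. By log2 fold change it ranked 314, 389, 430 and 291 from the top.

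At 36 h Nfkb2 was at 625, 626 and 617 CPM with the TNFR2 agonist, at 611, 664 and 637 CPM with the 4-1BB agonist, at 518, 518 and 510.4 CPM with the DR3 agonist and at 562, 541 and 588 CPM with the OX40 agonist. The control libraries of that time were at 345, 318 and 341 CPM and again overlapped none of them. The log2 fold changes were 0.90 ± 0.03 for TNFR2, 0.93 ± 0.03 for 4-1BB, 0.62 ± 0.03 for DR3 and 0.75 ± 0.03 for OX40 (adjusted p at most 3.2e-19). Every Nfkb2 call against control, at both times, held under all 9 alternative settings and with each library left out in turn.

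Relb, whose protein pairs with p52, rose second most at each time with every agonist. At 18 h it was at 118, 119.5 and 115 CPM with the TNFR2 agonist, at 110.3, 103 and 107 CPM with the 4-1BB agonist, at 104, 102 and 110.3 CPM with the DR3 agonist and at 90.0 and 91.4 CPM with the OX40 agonist, against 75.2, 73.6 and 74.1 CPM in control cultures. All agonist libraries were above all control libraries, and those with the OX40 agonist were nearest to them. The log2 fold changes were 0.66 ± 0.04 for TNFR2, 0.52 ± 0.04 for 4-1BB, 0.50 ± 0.05 for DR3 and 0.29 ± 0.05 for OX40 (adjusted p at most 1.62e-05).

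At 36 h Relb was at 85.1, 87.2 and 84.0 CPM with the TNFR2 agonist, at 77.2, 79.9 and 82.5 CPM with the 4-1BB agonist, at 80.7, 74.3 and 77.3 CPM with the DR3 agonist and at 65.0, 68.0 and 74.0 CPM with the OX40 agonist, against 60.6, 55.3 and 58.6 CPM in control cultures. The groups did not overlap the control, and the log2 fold changes were 0.56 ± 0.05 for TNFR2, 0.46 ± 0.05 for 4-1BB, 0.42 ± 0.05 for DR3 and 0.24 ± 0.05 for OX40 (adjusted p at most 0.000118). These Relb calls also held under all 9 alternative settings and with each library left out.

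Nfkb1, the gene of the p105 precursor, rose by less than Nfkb2 and Relb. At 18 h its libraries spanned 1373 to 1423 CPM with the TNFR2 agonist, 1362 to 1400.2 CPM with the 4-1BB agonist, 1329 to 1420.2 CPM with the DR3 agonist and 1280.1 to 1349 CPM with the OX40 agonist, all above the control range of 1196 to 1226 CPM. The log2 fold changes were 0.20 ± 0.03, 0.20 ± 0.03, 0.17 ± 0.03 and 0.12 ± 0.04 in that order, with an adjusted p of 0.0117 for OX40 and at most 4.85e-05 for the others. The OX40 call at 18 h was lost in 3 of 9 alternative settings and without OX40 agonist replicate 2 or control replicate 1. Leaving out 1 library gave log2 fold changes of 0.079 to 0.155 for it. Among the 3 settings was the fit without the 6 libraries rich in the ribosomal locus, which leaves 1 control library at 18 h. There the log2 fold change was 0.118. At 36 h the log2 fold changes were 0.21 ± 0.03 for TNFR2, 0.26 ± 0.03 for 4-1BB, 0.15 ± 0.03 for DR3 and 0.14 ± 0.03 for OX40 (adjusted p at most 0.000922), and no agonist library overlapped the control.

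Rela, the gene of the canonical activator p65, was higher by 0.12 to 0.23 on the log2 scale in the 8 agonist comparisons and passed the test in 5 of them. With the TNFR2 agonist it was at 142, 147 and 141 CPM at 18 h, against 129, 124 and 121 CPM in control cultures, a log2 fold change of 0.20 ± 0.05 (adjusted p = 0.00234). At 36 h it was at 117, 119.7 and 120.0 CPM with the TNFR2 agonist, against 106, 93.4 and 105 CPM in control cultures, a log2 fold change of 0.23 ± 0.05 (adjusted p = 0.000923). These 2 calls held under all alternatives. The other 3 calls were less stable: adjusted p was 0.0171 for 4-1BB at 18 h, 0.0389 for DR3 at 36 h and 0.0379 for OX40 at 36 h, and each was lost in 2 or 3 of the 9 settings and with 3 of the 6 libraries left out. Among the libraries whose removal ended a call were control at 18 h replicates 2 and 3, 4-1BB agonist at 18 h replicate 3, control at 36 h replicate 2, DR3 agonist at 36 h replicates 1 and 3, and OX40 agonist at 36 h replicates 1 and 3. Their removal gave log2 fold changes of 0.10 to 0.17. Without the 6 libraries rich in the ribosomal locus, the calls for 4-1BB at 18 h and DR3 at 36 h were lost, at log2 fold changes of 0.205 and 0.143. Of the 3 comparisons that did not pass, 2 were called without 1 library: OX40 at 18 h without OX40 agonist replicate 1 (0.19, adjusted p = 0.0453), against 0.03 without replicate 2, and 4-1BB at 36 h without 4-1BB agonist replicate 1 (0.17, adjusted p = 0.0222).

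Rel, the gene of c-Rel, passed the test against control with the OX40 agonist and with no other agonist. At 18 h it was at 524 and 545 CPM with the OX40 agonist, against 469, 476 and 472 CPM in control cultures, a log2 fold change of 0.18 ± 0.05 (adjusted p = 0.00539). At 36 h it was at 369, 399 and 363 CPM with the OX40 agonist, against 335, 354 and 334 CPM in control cultures, a log2 fold change of 0.15 ± 0.04 (adjusted p = 0.0162). The libraries did not overlap at either time. Both calls were lost with limma on TPM and without the 6 libraries rich in the ribosomal locus, where the log2 fold changes were 0.17 and 0.18 at 18 h and 0.11 and 0.10 at 36 h. The call at 18 h was also lost without OX40 agonist replicate 2 (log2 fold change 0.15), and that at 36 h without control replicate 1 or 3 or OX40 agonist replicate 2 (log2 fold change 0.10 to 0.13).

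With the other agonists Rel averaged 443 ± 30.4 CPM (TNFR2), 443 ± 7.74 CPM (4-1BB) and 441 ± 22.7 CPM (DR3) at 18 h, against 472 ± 3.44 CPM in control cultures (SD, n = 3 each). The log2 differences were −0.09, −0.09 and −0.10, with adjusted p of 0.101, 0.107 and 0.0997. Without TNFR2 agonist replicate 3 the first was −0.14 and was called, and the second was called when only the 2 groups were fitted. At 36 h the differences were −0.05, −0.08 and −0.05, with 95% intervals of −0.13 to 0.04, −0.17 to 0.00 and −0.14 to 0.04.

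**Figure D2:**
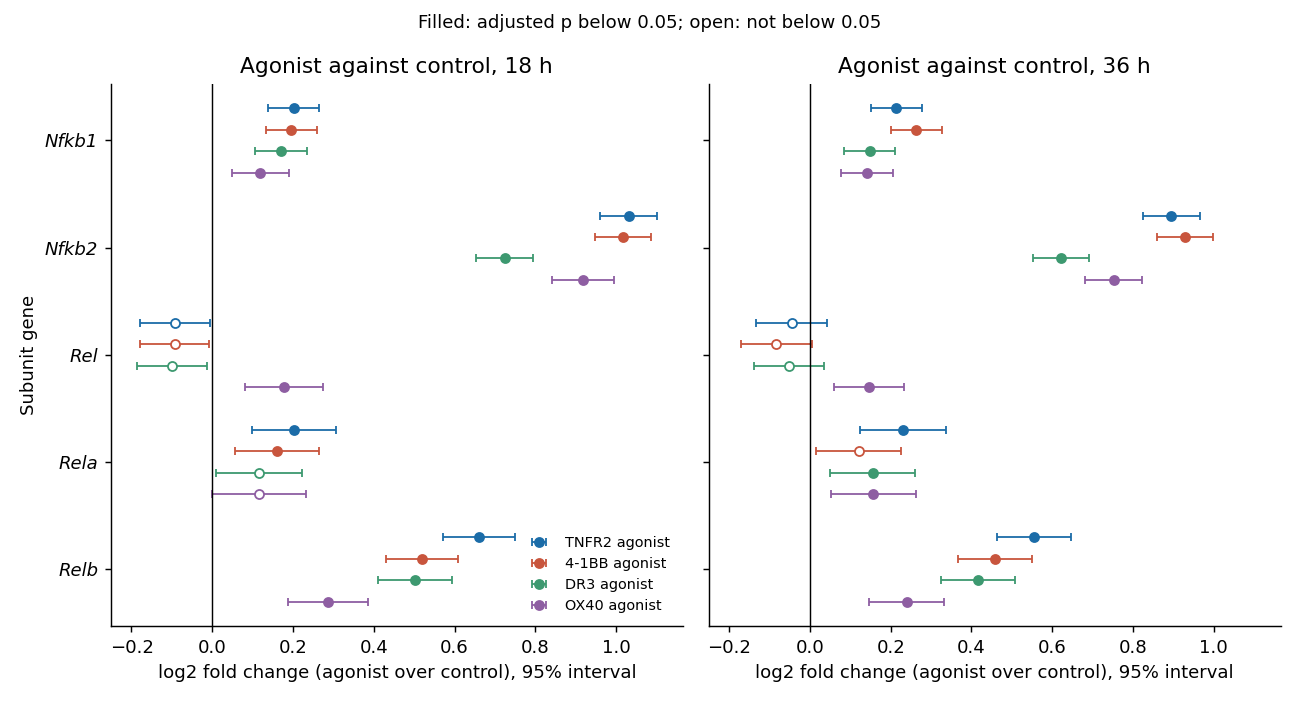
Log2 fold change of each subunit gene in agonist over control culture at 18 h (left) and 36 h (right), with 95% intervals; colours are agonists, filled points have an adjusted p below 0.05. Nfkb2 lies between 0.62 and 1.03, Relb between 0.24 and 0.66, and Rel is above 0 with the OX40 agonist and below 0 with the others.

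Counted over the subunits, 4 of 5 passed with the TNFR2 agonist at 18 h, where 31.1% of all genes tested were called and 15.8% were called higher. With 4-1BB 4 passed (25.8% and 12.7% of all genes), with DR3 3 passed (19.6% and 9.66%) and with OX40 4 passed (19.0% and 9.32%). At 36 h 4 passed with TNFR2 (24.8% and 13.0%), 3 with 4-1BB (22.5% and 10.9%), 4 with DR3 (13.4% and 6.97%) and 5 with OX40 (13.3% and 7.12%). Every one of these calls was higher than control. With OX40 at 36 h, 4 subunits in place of 5 were called whichever 1 library of the comparison was left out. Libraries did not overlap the control for 4, 5, 4 and 4 subunits at 18 h in the order TNFR2, 4-1BB, DR3 and OX40, where 41.9%, 42.7%, 34.3% and 44.5% of all genes did not. At 36 h this held for 4, 4, 5 and 5 subunits and for 38.7%, 36.4%, 31.2% and 28.5% of all genes. In these counts Rel lay below the control libraries with the 4-1BB and DR3 agonists at both times, and every other member counted lay above them. The 4 comparisons of a time share their control libraries, so their values stand side by side and are not independent of each other.

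Markers of other cells and of Tregs were also compared between agonist and control cultures. The myeloid and dendritic cell markers summed to 58.9 to 78.4 CPM with agonists at 18 h, against 42.0 to 43.4 CPM in control cultures. Of the 8 tested, 1 or 2 were called higher, where 9.32% to 15.8% of all genes were. With the TNFR2 agonist the list summed to 72.0 to 73.2 CPM, and Zbtb46 alone was at 35.2 to 39.5 CPM, against 10.1 to 11.4 CPM in control cultures. This 1 gene thus made up most of the rise of the sum with that agonist. Clec9a and Siglech were at 0 in every cultured group. The B cell markers summed to 328 to 430 CPM with agonists at 18 h, against 299 to 323 CPM in control cultures. With each agonist 1 of 9 tested was called higher, near the same shares of all genes. The cytotoxic, natural killer and gamma-delta T cell markers summed to 19.2 to 25.7 CPM with agonists at 18 h, against at most 15.1 CPM in control cultures. With each agonist 1 of 6 tested was called higher, beside the same shares of all genes. At 36 h the myeloid and dendritic cell markers summed to 43.7 to 54.9 CPM with agonists, against 35.0 to 36.7 CPM in control cultures, and the B cell markers to 263 to 304 CPM, against 271 to 286 CPM. The cytotoxic, natural killer and gamma-delta T cell markers summed to 29.9 to 33.0 CPM with the 4-1BB and 28.5 to 29.3 CPM with the DR3 agonist, against 36.5 to 37.8 CPM in control cultures at 36 h. With each of these agonists 1 of 6 tested was called lower, where 11.5% and 6.39% of all genes were. The sums were 38.25 to 39.91 CPM with TNFR2 and 35.17 to 39.35 CPM with OX40, with 0 of 6 called. Of the 8 Treg markers, 2, 4, 2 and 3 were lower at 18 h with the TNFR2, 4-1BB, DR3 and OX40 agonists, and 1, 1, 0 and 1 higher. Of all genes at 18 h, 9.71% to 15.3% were lower and 9.32% to 15.8% higher. At 36 h 3, 3, 1 and 3 Treg markers were lower, and 1 was higher each time. The part of any of these markers in the subunit differences was not tested. In a separate fit the 6 libraries rich in the ribosomal locus were left out, which leaves 1 control library at 18 h. There the log2 fold changes over the 8 comparisons were 0.63 to 1.03 for Nfkb2 and 0.24 to 0.66 for Relb.

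The agonists were then compared with each other at the doses used. A joint test found differences among the 4 agonists at 18 h for Nfkb2 (adjusted p = 1.7e-09), Relb (1.27e-06) and Rel (3.23e-05), that is for 3 of 5 subunits where 14.3% of all genes were called. At 36 h it found them for Nfkb2 (adjusted p = 2.57e-09), Relb (9.2e-06), Rel (0.000364) and Nfkb1 (0.0126), that is for 4 of 5 where 9.06% of all genes were called. Without the 6 libraries rich in the ribosomal locus, adjusted p at 36 h was 0.0553 for Rel and 0.229 for Nfkb1, and with limma on TPM it was 0.0645 for Rel; Nfkb1 also lost its call without 4-1BB agonist replicate 2 (0.072) or 3 (0.0661). Rela did not pass at either time (0.539 at 18 h and 0.509 at 36 h).

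All 12 pairs of agonists at the same time were contrasted, a test added after the data had been seen. At 18 h 5.56% of all genes were called for TNFR2 against 4-1BB, 3.74% for TNFR2 against DR3, 8.19% for TNFR2 against OX40, 8.54% for 4-1BB against DR3, 4.26% for 4-1BB against OX40 and 4.12% for DR3 against OX40. At 36 h the same pairs had 3.70%, 3.56%, 4.02%, 5.43%, 3.63% and 1.70% of all genes called. In the same order of pairs, 1, 2, 2, 1, 2 and 3 of the 5 subunits were called at 18 h. At 36 h 0, 1, 3, 2, 4 and 3 were called, and only part of these calls is described below. Nfkb2 was higher with the TNFR2 agonist than with the DR3 agonist, by 0.31 ± 0.03 at 18 h (adjusted p = 1.05e-08) and 0.27 ± 0.03 at 36 h (1.86e-07). It was likewise higher with the 4-1BB than with the DR3 agonist, by 0.29 ± 0.03 (7.4e-09) and 0.31 ± 0.03 (3.69e-09). For TNFR2 against 4-1BB the Nfkb2 difference did not pass the test, at 0.01 with a 95% interval of −0.05 to 0.08 at 18 h and −0.03 with an interval of −0.10 to 0.04 at 36 h. The 4 Nfkb2 calls against the DR3 agonist held under all 9 settings and with each library left out.

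Relb was higher with the TNFR2 than with the OX40 agonist, by 0.37 ± 0.05 at 18 h (adjusted p = 2.98e-07) and 0.32 ± 0.05 at 36 h (3.12e-06), and these calls held under all alternatives. It was also higher with the 4-1BB than with the OX40 agonist, by 0.23 ± 0.05 (0.00107) and 0.22 ± 0.05 (0.00103), where the call at 36 h was lost without OX40 agonist replicate 1 (adjusted p = 0.0733). Rel was lower with the other agonists than with the OX40 agonist. At 18 h the differences were −0.27 ± 0.05 for TNFR2, −0.27 ± 0.05 for 4-1BB and −0.28 ± 0.05 for DR3 (adjusted p at most 0.000297), and these 3 held under all alternatives. At 36 h they were −0.19, −0.23 and −0.20 in the same order (adjusted p at most 0.00551), and all 3 calls were lost with limma on TPM. Those for TNFR2 and DR3 were also lost without the 6 libraries rich in the ribosomal locus (adjusted p 0.205 and 0.315) and without OX40 agonist replicate 2 (0.0774 and 0.11), and that for TNFR2 without TNFR2 agonist replicate 2 (0.0946).

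Nfkb2 and Relb had different orders among the agonists. Nfkb2 had its smallest rise with the DR3 agonist, and Relb had its smallest rise with the OX40 agonist, at both times. For Nfkb2, DR3 minus OX40 was −0.19 ± 0.04 at 18 h (adjusted p = 0.00162) and −0.13 ± 0.03 at 36 h (0.0308). For Relb, DR3 minus OX40 was 0.22 ± 0.05 at 18 h (0.00647) and 0.18 ± 0.04 at 36 h (0.023). At 18 h both calls were lost when only the groups compared were fitted (adjusted p 0.163 for Nfkb2 and 0.134 for Relb) at differences of −0.20 and 0.21, and without OX40 agonist replicate 2 (0.184 and 0.0867); that of Relb was also lost with limma on TPM (0.0838). At 36 h both were lost with limma on TPM (0.308 and 0.108), without the 6 libraries rich in the ribosomal locus (0.238 and 0.314), and without DR3 agonist replicate 1 or 3 or OX40 agonist replicate 1. With no filter on low counts (0.0957), or without DR3 agonist replicate 2 or OX40 agonist replicate 3, that of Nfkb2 was lost, and without OX40 agonist replicate 2 that of Relb was.

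The effect of each agonist at 36 h was set against its effect at 18 h. No subunit passed this test for any agonist, where 6.69% of all genes were called for TNFR2, 4.37% for 4-1BB, 2.31% for DR3 and 3.48% for OX40. Nfkb2 had the largest differences, at −0.14 ± 0.05 for TNFR2 (adjusted p = 0.0866), −0.09 ± 0.05 for 4-1BB (0.408), −0.10 ± 0.05 for DR3 (0.354) and −0.17 ± 0.05 for OX40 (0.0582). At an unadjusted p under 0.05 edgeR gave 1 subunit for TNFR2, 0 for 4-1BB, 1 for DR3 and 1 for OX40, while DESeq2 called 1 for TNFR2 and 1 for OX40, each time Nfkb2, and limma on TPM called 0. The Nfkb2 difference for TNFR2 was also called without TNFR2 agonist at 18 h replicate 3 or control at 36 h replicate 2, and that for OX40 without OX40 agonist at 18 h replicate 1, control at 36 h replicate 2 or OX40 agonist at 36 h replicate 3 (adjusted p 0.0218 to 0.047). Relb differed by −0.11 (TNFR2), −0.06 (4-1BB), −0.09 (DR3) and −0.05 (OX40), all with 95% intervals that include 0.

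Ratios within a library do not depend on scaling between libraries, and are given as a description. The ratio of Nfkb2 to Nfkb1 in TPM was 0.564 ± 0.00436 with the TNFR2, 0.566 ± 0.00418 with the 4-1BB, 0.468 ± 0.0110 with the DR3 and 0.561 ± 0.00793 with the OX40 agonist at 18 h, against 0.317 ± 0.00737 in control culture (SD). At 36 h it was 0.544, 0.533, 0.471 and 0.518 with the same agonists, against 0.343 in control culture, and it was 0.244 ± 0.0151 at rest. The ratio of Relb to Rela was 1.016 ± 0.00815 with the TNFR2 agonist at 18 h, 0.946 with 4-1BB, 0.968 with DR3 and 0.840 with OX40, against 0.743 in control culture. It was 0.729 at rest, so that control culture and rest were near each other in this ratio. The ratio of Rel to Rela was 1.32 ± 0.0536 in control culture at 18 h, against 0.397 ± 0.0385 at rest.

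Nfkb2 made up 13.5% of the summed TPM of the 5 subunits at rest, 18.8% in control culture at 18 h and 20.3% at 36 h. With agonists it made up 25.5% to 29.3% at 18 h and 26.0% to 29.0% at 36 h. Nfkb2 and Relb encode partners once p100 is processed, and their ratio was 1.26 at rest, 3.53 in control culture at 18 h and 3.99 at 36 h. Computed from expected counts in place of TPM the ratios were lower for Relb to Rela, at 0.820 with the TNFR2 agonist against 0.597 in control culture at 18 h, because counts are not divided by transcript length.

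**Figure D3:**
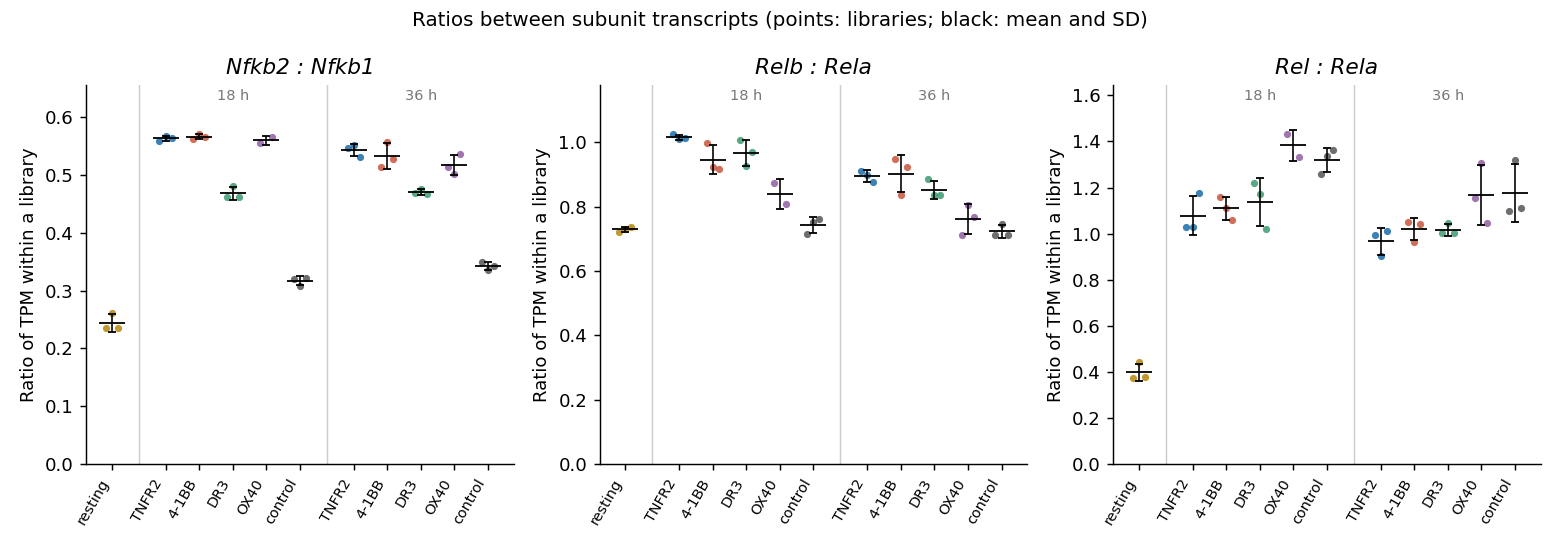
Ratios of TPM within each library for Nfkb2 to Nfkb1, Relb to Rela and Rel to Rela, by group; points are libraries and black bars the mean and SD. Nfkb2 to Nfkb1 lies at 0.462 or above in all agonist libraries, against 0.350 or below in control libraries and 0.261 or below at rest.

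Placed in order of mean CPM over the 11 groups, the subunits fell into different sequences. Nfkb2 was highest with the TNFR2 (762 CPM) and 4-1BB (755 CPM) agonists at 18 h, whose libraries overlapped, then with the OX40 agonist at 18 h (705 CPM). The 4-1BB agonist at 36 h (637 CPM), the TNFR2 agonist at 36 h (623 CPM) and the DR3 agonist at 18 h (616 CPM) overlapped as neighbours. Below these the OX40 agonist at 36 h (564 CPM), the DR3 agonist at 36 h (515 CPM), control at 18 h (373 CPM), control at 36 h (335 CPM) and rest (142.5 CPM) each stood clear of the next.

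Relb was highest with the TNFR2 agonist at 18 h (118 CPM), clear of the 4-1BB (107 CPM) and DR3 (105 CPM) agonists, which overlapped. At rest it was at 79.8 CPM, a level that overlapped its neighbours, the 4-1BB (79.9 CPM) and DR3 (77.4 CPM) agonists at 36 h. Its lowest level, 58.2 CPM, was in control culture at 36 h. Rel was highest with the OX40 agonist at 18 h (534 CPM), clear of control at 18 h (472 CPM), which overlapped the TNFR2 agonist. The OX40 agonist also stood first among the groups of 36 h (377 CPM), clear of control (341 CPM).

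Nfkb1 had its highest levels in the 4 agonist groups at 18 h, from 1392 CPM with the TNFR2 agonist to 1315 CPM with the OX40 agonist, each overlapping the next. Control at 18 h (1210.2 CPM) lay between and overlapped the 4-1BB (1238 CPM) and TNFR2 (1197 CPM) agonists at 36 h. Rela had the narrowest range over the 11 group means, between 143 CPM with the TNFR2 agonist at 18 h and 101 CPM in control culture at 36 h. Its only step without overlap between neighbours was between control at 18 h (125 CPM) and the TNFR2 agonist at 36 h (119 CPM).

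The other genes of the pathway were examined as 5 lists. Of the 9 I-kappa-B genes and their regulators, 4 were higher and 4 lower in control culture at 18 h than at rest, with a median log2 fold change of −0.11 against −0.01 over all genes, of which 40.9% were higher and 40.1% lower; these shares are the background of the other lists in that comparison too. Nfkbib (I-kappa-B beta, a cytoplasmic inhibitor) rose to 81.6 ± 1.21 CPM in control culture, against 32.6 ± 1.67 CPM at rest (log2 fold change 1.32). Nfkbia (I-kappa-B alpha, the inhibitor that NF-kB itself induces) fell to 255 ± 1.00 CPM in control culture, against 338 ± 9.97 CPM at rest (−0.41), and Nfkbiz (a nuclear I-kappa-B protein) fell by 1.23. With agonists at 18 h the list had 4 higher with each agonist and 1 or 2 lower, where 9.32% to 15.8% of all genes were called higher and 9.71% to 15.3% lower. The 4 were Nfkbia, Nfkbib, Nfkbie and Bcl3.

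Nfkbia averaged 456 ± 15.6 CPM with the TNFR2, 468 ± 7.08 CPM with the 4-1BB, 396 ± 13.5 CPM with the DR3 and 401 ± 3.50 CPM with the OX40 agonist at 18 h, against 255 ± 1.00 CPM in control cultures. The log2 fold changes were 0.84, 0.88, 0.64 and 0.66 (adjusted p at most 2.92e-18). Nfkbie (I-kappa-B epsilon) rose by 0.95, 0.86, 0.71 and 0.64, and Bcl3, a nuclear partner of p50 and p52 homodimers, by 0.70, 0.56, 0.47 and 0.43. Nfkbid, which encodes the nuclear protein I-kappa-B NS and is known in mice for a role in Foxp3 induction, moved the other way. It averaged 92.1 ± 2.33 CPM with the TNFR2 agonist, against 155 ± 6.39 CPM in control cultures (−0.75), and fell by 0.65, 0.65 and 0.55 with the 4-1BB, DR3 and OX40 agonists.

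At 36 h the I-kappa-B list of 9 genes had 5 higher with the TNFR2 agonist and 4 with each of the others, with 1 lower each time. Of all genes, 6.97% to 13.0% were higher. Of the 14313 genes tested, 1697, 1649, 915 and 889 were lower with the TNFR2, 4-1BB, DR3 and OX40 agonists. The 1 lower gene of 9 thus does not set the list apart from all genes. Nfkbia averaged 300.3 ± 6.03 CPM with the TNFR2, 283 ± 8.58 CPM with the 4-1BB, 256 ± 8.19 CPM with the DR3 and 256 ± 8.36 CPM with the OX40 agonist, against 181 ± 8.10 CPM in control cultures (adjusted p at most 3.3e-15). Like Nfkb2 and Relb, it was thus above control at both times with each agonist. Nfkbid was again the gene below control, by 0.67, 0.64, 0.47 and 0.49 on the log2 scale with the TNFR2, 4-1BB, DR3 and OX40 agonists.

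**Figure D4:**
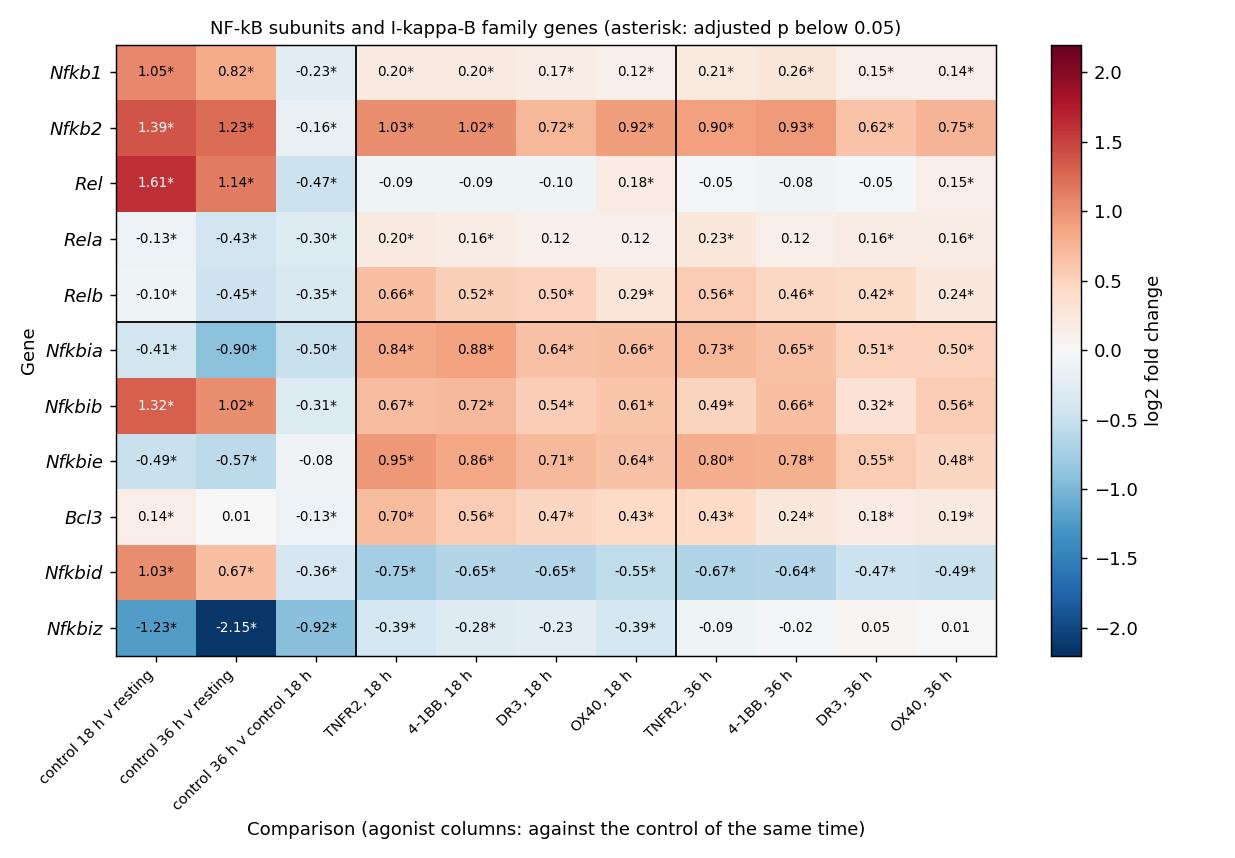
Log2 fold changes of the 5 subunit genes (upper block) and 6 I-kappa-B family genes (lower block) in control culture against rest, between times, and in agonist against control culture; an asterisk marks an adjusted p below 0.05. Nfkb2, Relb, Nfkbia, Nfkbib, Nfkbie and Bcl3 are higher and Nfkbid is lower in each agonist column.

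Of the 12 genes for the IKK complex and the kinases above it, 1 was higher and 7 were lower in control culture at 18 h than at rest (median −0.21). Ikbkb, the catalytic subunit IKK-beta, fell to 138 ± 2.82 CPM in control culture, against 293 ± 4.69 CPM at rest (−1.09). Map3k14, the gene of NIK, fell to 44.1 ± 2.46 CPM, against 84.8 ± 9.94 CPM at rest (−0.94). With agonists at 18 h 2 or 3 of the 12 were higher and 1 or 2 lower, where 9.32% to 15.8% of all genes were higher and 9.71% to 15.3% lower. Map3k8 (the kinase Tpl2, which binds p105) rose by 0.69, 1.12, 0.55 and 0.78 with the TNFR2, 4-1BB, DR3 and OX40 agonists, and Tab2, an adaptor of the kinase TAK1, by 0.33, 0.48, 0.17 and 0.28. Map3k14 was lower by 0.20, 0.27 and 0.26 with the TNFR2, 4-1BB and DR3 agonists, and its log2 difference of −0.09 with OX40 had an adjusted p of 0.407. Map3k7, the gene of TAK1, was higher in control culture at 36 h than at 18 h (0.32), as 2 of the 12 and 25.6% of all genes were, and 6 of the 12 and 26.6% of all genes were lower.

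Among 20 TRAF, cIAP and ubiquitin regulators, 4 were higher and 13 lower in control culture at 18 h than at rest (median −0.42). Tnfaip3, the gene of the feedback inhibitor A20, was at 119 ± 1.70 CPM in control culture, against 542.0 ± 25.8 CPM at rest, and Traf6 rose by 1.36. With agonists at 18 h between 6 and 11 of the 20 were higher and between 1 and 3 lower. Of all genes, 9.32% to 15.8% were higher and 9.71% to 15.3% lower. Traf1 rose by 0.58, 0.85, 0.44 and 0.56 with the TNFR2, 4-1BB, DR3 and OX40 agonists and Tnfaip3 by 0.61, 0.91, 0.58 and 0.50. Otulin, a deubiquitinase for linear ubiquitin chains, and Cyld, another deubiquitinase, were both higher in control culture at 36 h than at 18 h, by 0.52 and 0.35, where 4 of the 20 were higher and 8 lower (25.6% and 26.6% of all genes).

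Of 9 tested genes listed for the route from CD3 and CD28, 3 were higher and 6 lower in control culture at 18 h than at rest. Prkcq (protein kinase C theta) averaged 90.3 ± 2.79 CPM in control culture, against 414 ± 12.2 CPM at rest. With agonists at 18 h between 4 and 6 of the 9 were lower, where 9.71% to 15.3% of all genes were. At most 1 was higher, where 9.32% to 15.8% of all genes were. Cd28 averaged 132 ± 13.4 CPM with the TNFR2 agonist, against 287 ± 4.86 CPM in control cultures (−1.11), and fell by 0.99, 0.64 and 0.64 with the 4-1BB, DR3 and OX40 agonists. Prkcq fell by 0.74, 0.67, 0.59 and 0.43 in the same order. Carmil2, a scaffold of CD28 signalling, was lower at 36 h than at 18 h of control culture, by 0.38. The list also holds Pdk1, whose symbol in the files denotes pyruvate dehydrogenase kinase 1 and which is not a member of that route; it was higher at 36 h than at 18 h, by 0.59.

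Of 28 genes known as NF-kB targets, 19 were higher and 7 lower in control culture at 18 h than at rest, with a median log2 fold change of 0.91. Irf4, a transcription factor of effector Tregs, averaged 874 ± 14.4 CPM in control culture, against 93.9 ± 4.43 CPM at rest (3.22), and Lta (lymphotoxin alpha) rose by 2.87. Between 36 h and 18 h of control culture Lta rose by a further 0.67 and Myc fell by 0.61, with 8 of the 28 higher and 15 lower (25.6% and 26.6% of all genes). With agonists 13 or 14 were higher and 3 to 6 lower at 18 h, with medians of 0.10 to 0.14. Of all genes, 9.32% to 15.8% were higher and 9.71% to 15.3% lower. Icam1 rose by 1.00, 1.04, 0.89 and 0.62 and Cd83 by 0.90, 1.05, 0.70 and 0.55 with the TNFR2, 4-1BB, DR3 and OX40 agonists. At 36 h between 14 and 17 were higher and 5 or 6 lower, where 6.97% to 13.0% of all genes were higher. Between 889 and 1697 of the 14313 genes tested were lower.

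The genes most like each subunit in pattern were taken by Pearson's r of log2 CPM over the 11 group means, among 8383 genes with a mean of at least 10 CPM. Mllt1 was nearest to Nfkb1 (r = 0.996), Chst11 to Nfkb2 (0.989), Cables2 to Rela (0.960) and Irf2bp2 to Relb (0.954), where Nfkbia was second (0.951). The next were Fdx1l and Plagl2 for Nfkb1, Ccdc6 and Bcl7c for Nfkb2, Itpkc and Rhog for Rela, and Vav2 for Relb. For Rel, Ttc27 and Hnrnpd were among the nearest (0.988 each). Among the subunits themselves, r over the 11 groups was highest for Nfkb1 with Nfkb2 (0.943) and Nfkb1 with Rel (0.917), and lowest for Nfkb1 with Rela (0.088). Over the 10 cultured groups alone the order differed, with Nfkb1 and Relb at 0.959 and Nfkb2 and Rel at 0.265. These values describe 11 group means that share culture conditions, and no test was made of them.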

How the data were processed

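RNA of 32 libraries was measured by RNA-seq with the SMART-Seq v4 kit, which amplifies full-length cDNA without marking strand or molecules, per the labels' protocols. Read processing, per the submitters' processing notes, used STAR 2.5.3a and RSEM 1.2.28 on build mm10 after FastQC and Trimmomatic. Which annotation release and strand option were used is not given in the sources used here. Deposited by the authors were RSEM expected counts (estimated reads per gene, with reads that match several loci shared out) and TPM (scaled for length and to 1 sum per library) for 54087 genes. Reads of overlapping or antisense genes can be shared in such counts.

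Expected counts were rounded and tested with edgeR 4.0.16 (R 4.3.3): filterByExpr over the 11 groups kept 14313 genes, libraries were scaled by TMM, and all 32 libraries entered 1 model that gave each group its own mean (common dispersion 0.00162). Contrasts used the robust quasi-likelihood test with Benjamini-Hochberg adjustment over all genes tested, and a gene was called below an adjusted p of 0.05. Every adjusted p in the text comes from this test unless another is named, and ± beside a log2 fold change is its standard error. CPM are counts over TMM-scaled library totals. Ratios and levels between genes used TPM. The fits were tested on simulated data.

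The alternatives were DESeq2 1.42.0 or its size factors, limma 3.58.1 on log2(TPM + 1), no filter or a stricter one of 10 CPM in 2 libraries, only the groups compared, a replicate block, the ribosomal locus as a covariate, leaving out the 6 libraries above 10000 CPM at that locus, and leaving out each library in turn. The last 2 uses of the ribosomal locus and the pairwise contrasts of agonists were added after the data had been seen. The subunits, the pathway lists and the marker lists were chosen with earlier results of these data known. From each pathway list, up to 2 genes per family of comparisons were named, those with the smallest p among those called whose higher group averaged 5 CPM or more; Bcl3 and Nfkbiz were named after their values were seen. Genes of like pattern were the 3 with the highest r per subunit. Of the genes these rules name, 2 are not reported here. The median correlation of deviations from the group means was −0.024 between libraries that share a replicate number, against 0.005 between others. With 2 or 3 libraries per group these values cannot show whether replicates were paired. The main model had no replicate block.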

Additional observations from a re-analysis of the deposited data

How the results depend on the processing

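Against control, the rises of Nfkb2 and Relb with every agonist at both times, of Nfkb1 with every agonist except OX40 at 18 h, and of Rela with the TNFR2 agonist stayed called under all 9 alternative settings and without each library. So did the rises of Nfkb1, Nfkb2 and Rel in control culture over rest, and all subunit differences of control at 36 h from rest and from 18 h. Leaving out libraries gave 5 called subunits for both of those comparisons.

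The number of subunits called in control culture at 18 h against rest was 3 with no filter on low counts and 3 without the 6 libraries rich in the ribosomal locus, and 3 to 5 with 1 library left out. For the OX40 agonist at 18 h it was 2 with limma on TPM and 2 without the 6 libraries, and 2 to 5 with 1 library left out; for OX40 at 36 h it was 3 with limma. With 1 library left out, OX40 at 36 h had 4 subunits called each time. For agonists at 36 h the joint test called 2 without the 6 libraries. For the OX40 effect at 36 h minus 18 h, DESeq2, its size factors and no filter each called 1, and leaving out 1 library called 0 to 1; for TNFR2 DESeq2 called 1 and leaving out 1 library called 0 to 1. The cause was not tested.

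Signs turned only among uncalled differences of effect between 36 h and 18 h. For Nfkb1 they became −0.00269 (DESeq2 size factors) and −0.00259 (DESeq2) for TNFR2, −0.00151 (no filter) for OX40 and 0.0305 (limma) for DR3. Without the 6 libraries they became −0.000628 for Rel and −0.0116 for Rela with TNFR2, and −0.0177 for Rela with DR3. With 1 library left out, the ranges that crossed 0 were, for Nfkb1, −0.0076 to 0.0291 (TNFR2), −0.0406 to 0.0068 (DR3) and −0.0173 to 0.059 (OX40). For Rela they were −0.0264 to 0.0591 (TNFR2), −0.0901 to 0.0123 (4-1BB), −0.0139 to 0.0731 (DR3) and −0.0401 to 0.119 (OX40), for Rel −0.00516 to 0.0432 (4-1BB) and for Relb −0.0992 to 0.0048 (OX40).

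Counts over all genes moved more. Against control at 18 h edgeR called, in the order TNFR2, 4-1BB, DR3 and OX40, 4456, 3690, 2806 and 2724 genes, compared with 1876, 1873, 1150 and 1181 without the 6 libraries; limma called 1672 for OX40. At 36 h the calls were 3551, 3215, 1912 and 1908, against 2280, 1905, 911 and 1046 with limma. For the differences between times they were 958, 626, 331 and 498, against 446, 330, 144 and 180 with limma and 242, 245, 63 and 90 without the 6 libraries; with the ribosomal locus as a covariate 512 were called for TNFR2 and 244 for OX40. The joint test called 2045 at 18 h and 1297 at 36 h, against 1266 and 597 with limma, 1351 and 688 without the 6 libraries, and 1167 at 18 h with only the groups compared. Without OX40 agonist at 18 h replicate 2 the OX40 comparison at 18 h called 1491; without control at 36 h replicate 2 or DR3 agonist at 36 h replicate 1 the DR3 comparison at 36 h called 1191 or 1223. The difference between times for OX40 called 160 to 921 with 1 library left out, moving over 1.5 times without OX40 agonist at 18 h replicate 1 (921) or 2 (160) or at 36 h replicate 3 (289). That for DR3 called 204 without control at 18 h replicate 1, 197 without DR3 agonist at 18 h replicate 1 and 209 without DR3 agonist at 36 h replicate 2. With limma the share of calls that were higher was 32.7%, against 49.3%, for DR3 at 18 h, 39.7%, against 52.2%, for TNFR2 at 36 h and 42.5%, against 53.4%, for OX40 at 36 h.

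With the replicate number as a block, all numbers of subunits called were the same, 5 for control at 18 h against rest and 4, 4, 3 and 4 for the agonists at 18 h, and no call changed. Shares of reads and ratios depend on total counts of 11880270 or more per library. An effect of depth on the 5 subunits was not tested. The 2 libraries of the OX40 agonist at 18 h and the 2 libraries above 10000 CPM among the 3 controls at 18 h limit the comparisons that use them.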

Other observations

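RSEM reports for each gene a mean transcript length weighted by the estimated mix of its transcripts. For Nfkb1, with 10 transcripts in the deposited tables, it was 3145 to 3254 bases in cultured libraries, against 3023 to 3135 bases in resting ones, and no cultured library overlapped a resting one. In control culture it was 3238 to 3254 bases at 36 h, against 3145 to 3187 bases at 18 h. Nfkb2 spanned 3078 to 3092 bases over all 32 libraries and Relb 2171 to 2253 bases, while Rel and Rela, with 1 transcript each in the tables, were constant. The length enters TPM but not CPM, and which transcripts of Nfkb1 differed was not tested.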
